A study of Mus musculus with 2 samples.

Results

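Mir378a is the miRNA gene with the most assigned reads in both libraries of this heart series, and it is 1 of 2202 miRNA genes counted. It was chosen by its measured level, so its level and its place in the ranking are given below as a description, with no test. The series holds small RNA libraries from heart tissue of female B6CASTF1/J mice, an F1 cross of C57BL/6 and CAST, at an age of 36 days by the age field, although 1 free-text label gives months. Both hearts form 1 group with n = 2, biological replicates 1 and 2, with no treatment named in the labels, so the design has no contrast of conditions. The records of the hearts share 1 donor code, and nothing further was given to show how far the animals were independent. Any p-value therefore measures a difference between these 2 libraries.

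A miRNA is cut from a hairpin precursor and loaded into an Argonaute protein, where its seed, bases 2 to 8, pairs with target messages and lowers their output. Mir378a sits inside Ppargc1b, the gene of PGC-1beta, a coactivator that drives mitochondrial and fatty acid oxidation genes. Its products are known from muscle, heart and fat as brakes on this programme, through targets such as Crat and Med13, and in heart muscle cells as repressors of growth signalling. In these tables a gene's count takes in reads of both arms of the hairpin.

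The genes that followed Mir378a in the ranking include several of the let-7 family, and the heart muscle genes it is compared with belong to the miR-208 and miR-499 group. Their mature sequences show which of them share a seed, while the family sums further on go by gene symbol. Each is printed from RefSeq (GRCm38.p6), 5′ to 3′, with the seed in capitals.
let-7i-5p: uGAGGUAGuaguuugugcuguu
let-7g-5p: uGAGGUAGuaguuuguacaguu
let-7b-5p: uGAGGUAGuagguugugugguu
let-7d-5p: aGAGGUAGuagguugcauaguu
miR-126a-3p: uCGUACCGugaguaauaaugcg
miR-208a-3p: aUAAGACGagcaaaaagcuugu
miR-208b-3p: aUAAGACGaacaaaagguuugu
miR-499-5p: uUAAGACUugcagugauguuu
All 4 let-7 sequences carry 1 seed, and so did the 5p entries of all 10 let-7 genes that matched the RefSeq table, of 11 in the counts. The miR-208a and miR-208b seeds are identical, while the miR-499 seed differs from them. The 3 other genes of the miR-378 family, Mir378b, Mir378c and Mir378d, matched RefSeq entries with 3 different seeds.

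Mir378a gave 260770 sense-strand reads in replicate 1 and 293758 in replicate 2. As a share of all reads assigned to miRNA genes this was 12.6% (exact 95% limits 12.5 and 12.6) in replicate 1 and 16.6% (limits 16.6 and 16.7) in replicate 2. Per 1000000 assigned reads (CPM) the values were 125675 and 166328, with a mean of 146001 ± 28746 CPM (SD, n = 2). Replicate 2 was thus the higher library, although it was the shallower one, with 1766135 assigned reads against 2074961. At this depth 1 read is worth 0.482 CPM in replicate 1 and 0.566 CPM in replicate 2, so counting error is a minor part of the spread. These intervals cover counting error only, since PCR copies of a molecule cannot be told from separate molecules. The SD of Mir378a was 19.7% of its mean. Among the 70 genes that averaged at least 1000 CPM this percentage had a median of 18.2% and quartiles of 11.1% and 27.7%, and Mir378a took place 38 counted from the steadiest gene.

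The level depended on what was counted as the library. Against all reads in the tables, unmapped and multiply mapped ones included, Mir378a made up 4.65% (limits 4.63 and 4.67) in replicate 1 and 5.89% (limits 5.87 and 5.91) in replicate 2. Against assigned reads plus reads that mapped to several places, it made up 5.89% (limits 5.86 and 5.91) and 7.83% (limits 7.80 and 7.86). Reads with several matches were assigned to no gene, so a miRNA with identical gene copies can rank too low beside Mir378a. Since Mir378a fills so much of the assigned reads, the CPM of every other gene would be 1.14-fold higher in replicate 1 and 1.20-fold higher in replicate 2 if it were left out of the total.

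Mir378a ranked at place 1 in each library by assigned reads. Multiply mapped reads outnumbered the assigned ones in both libraries and could not be ranked by gene. Genes with near-identical copies, such as those of Mir1a and Mir133a, can therefore stand too low. Each read comes from 1 short RNA, so counts were compared between genes without scaling to length. The ratios are of reads and not of molecules, since PCR copies cannot be told from separate molecules. In replicate 1 the next gene was Mir126a, a miRNA of endothelial cells, with 201306 reads, and Mir378a had 1.30 times as many (exact 95% limits 1.29 and 1.30). In replicate 2 the next gene was Mirlet7i with 130458 reads, and Mir378a had 2.25 times as many (limits 2.24 and 2.27). Mirlet7i reached 94623 and 73866 CPM and Mir126a 97017 and 65811 CPM in replicates 1 and 2. The values of these followers overlapped each other, and both lay below the lower Mir378a value. Mirlet7g reached 73776 and 49444 CPM. Mir23b, a gene of the miR-23, miR-27 and miR-24 cluster, reached 52614 and 56762 CPM.

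**Figure D1:**
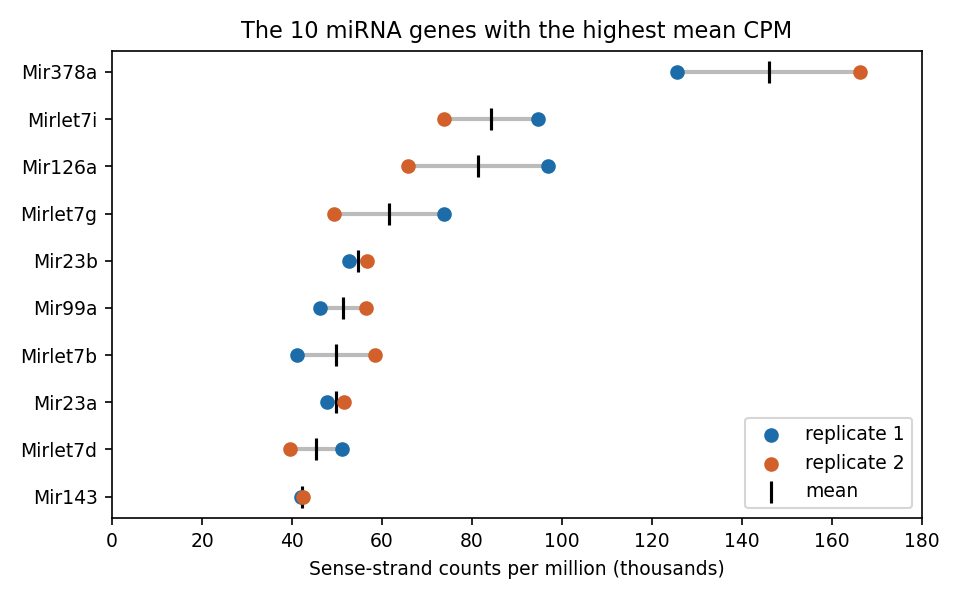
Sense-strand CPM of the 10 miRNA genes with the highest mean CPM; points are the libraries of replicates 1 and 2, the grey line joins them and the black bar is their mean. Both Mir378a points, at 125675 and 166328 CPM, lie to the right of every other point, and replicate 1 is the higher library for Mirlet7i, Mir126a and Mirlet7g but the lower one for Mir378a.

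As a family, let-7 outnumbered Mir378a. The 11 genes whose symbols begin with Mirlet7, without their relative Mir98 (4210 and 1846 reads), summed to 570009 reads in replicate 1 and 419050 in replicate 2, or 27.5% and 23.7% of assigned reads. Mir378a equalled 45.7% of that sum in replicate 1 and 70.1% in replicate 2. Reads shared between let-7 gene copies are in no gene count, so the sum can be too low and these percentages too high. The 4 highest let-7 genes, whose sequences are printed above, alone summed to 26.1% and 22.1% of assigned reads. With let-7 counted as 1 unit, Mir378a stood at place 2.

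Within its own family nearly all reads came from Mir378a. It held 99.8% of the miR-378 family's reads in each library. Mir378d (chromosome 10, 126710282 to 126710391, minus strand) had 428 and 520 reads, or 206 and 294 CPM. Mir378c (chromosome 14, 46954830 to 46954928, minus strand) had 40 and 46 reads, and Mir378b (chromosome 11, 88352773 to 88352864, plus strand) had 8 and 17. Mir378a exceeded Mir378d by 609 times (exact 95% limits 554 and 671) in replicate 1 and 565 times (limits 518 and 617) in replicate 2, and these intervals overlap. Reads that match more than 1 member are not in these counts, so the values do not give the full output of the smaller members.

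In GENCODE M21 on mm10, Mir378a (ENSMUSG00000105200.1) covers 66 bases of chromosome 18, from 61397835 to 61397900 on the minus strand. It lies in intron 1 of Ppargc1b (61298136 to 61400431, minus strand), and this held for all 3 annotated transcripts that span it. The hairpin begins 2390 bases after the end of exon 1. The next exon lies 15312 bases beyond the hairpin in Ppargc1b-201, which has 13 exons, and 74527 bases beyond it in Ppargc1b-202, which has 12. The message of Ppargc1b itself was not measured in these libraries of short RNA.

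**Figure D2:**
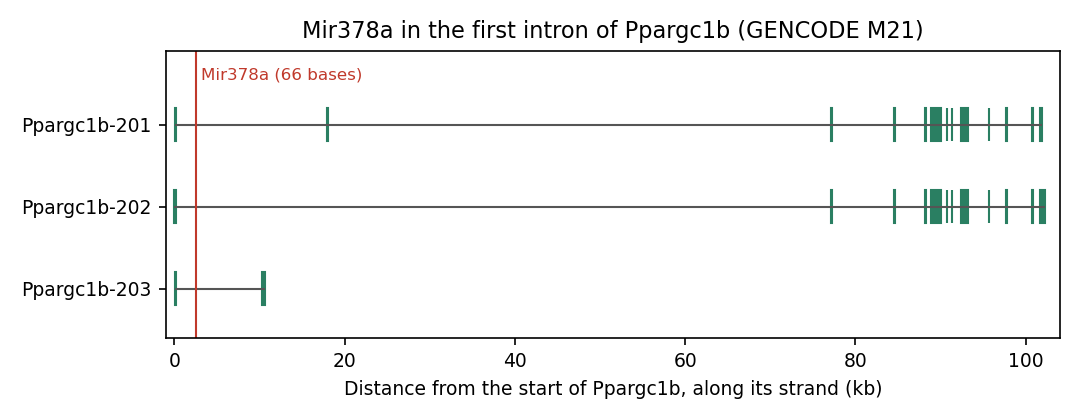
Exons (green) of the 3 annotated transcripts of Ppargc1b by distance from the start of the gene along its strand, in kilobases, with the position of Mir378a as a red line. Mir378a lies near the start of the gene, in the first intron of every transcript drawn.

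No other miRNA gene on chromosome 18 lay within 10 kb of Mir378a except the one that faces it. The nearest on either side were Mir6983, 280303 bases away with 0 and 1 reads, and Mir145a, 249924 bases away with 2343 and 3295 reads. Mir145a belongs to the smooth muscle cluster with Mir143. Of the 56 other miRNA genes on this chromosome, 7 reached 2 CPM in both libraries and 2 of these, Mir143 and Mir145a, averaged at least 1000 CPM.

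Of all 2202 miRNA genes, 733 lay in an intron of a protein-coding gene on the same strand, and together they held 39.4% of assigned reads in replicate 1 and 44.97% in replicate 2. Mir378a supplied 31.9% and 37.0% of the reads of this class. The class held 7 of the 20 genes with the highest mean CPM, among them Mir139 in Pde2a, a phosphodiesterase of cyclic nucleotides, Mir26b in Ctdsp1 and Mir149 in Gpc1. Another list, of 18 miRNA genes known from protein-coding hosts and called the list of host introns below, was led by Mir378a, Mir126a, Mir139 and Mir26b. Of these, Mir126a overlapped an exon of its host Egfl7 in the annotation. Lower on the list, Mir26a-2 overlapped an exon of Ctdsp2, and Mir191 lay outside protein-coding genes. Mir139 reached 21091 and 39853 CPM and Mir26b 16313 and 35199 CPM.

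Whether strand was used decided whether Mir378a was counted at all. The miRNA gene Gm25301 (61397813 to 61397925, 113 bases) lies on the plus strand over all 66 bases of Mir378a. In the column without regard to strand, Mir378a had 0 reads in both libraries, and its reads stood in the ambiguous row, which names no gene. They made up 43.4% (exact 95% limits 43.2 and 43.5) of that row in replicate 1 and 62.5% (limits 62.3 and 62.6) in replicate 2. In that column Mir378a stood at place 598 by mean CPM, and Mirlet7i led in both libraries.

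The opposite-strand column gave the mirror image. Mir378a had 1 read on the opposite strand in replicate 1 and 0 in replicate 2, both below the floor of 3 reads that a count of 0 allows. Gm25301 had 1 and 0 reads on its own strand and 260771 and 293758 on the opposite one. The reads at this site thus lay almost wholly on the strand of Mir378a.

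**Figure D3:**
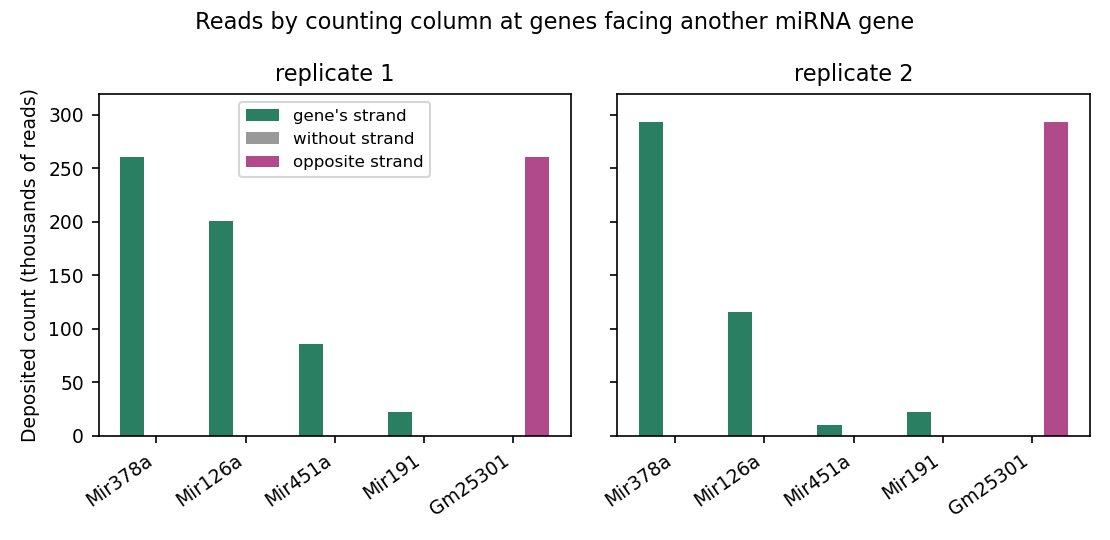
Deposited read counts, in units of 1000 reads, at the 4 most abundant genes that face another miRNA gene and at Gm25301, for replicates 1 and 2; bars are the columns for the gene's strand, without strand and for the opposite strand. Mir378a stands at 260770 and 293758 reads on its own strand and at 0 without strand, and Gm25301 has almost the same totals on its opposite strand.

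Mir378a shared this counting gap with other genes. In all, 64 miRNA genes overlapped a miRNA gene on the other strand, and 25 of them had more than 3 sense reads in both libraries. Of these 25, 24 had 0 reads in both libraries in the column without strand. After Mir378a, the largest shares of the ambiguous row came from Mir126a with 33.5% in replicate 1 and 24.7% in replicate 2. Mir451a, a miRNA of red blood cells, took 14.3% and 2.16%.

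Mir378a differed between the hearts by more than the counting error that an exact binomial test assumes. Such a test takes each read as independent, although PCR copies cannot be told from separate molecules. After scaling of the library sizes by TMM, a trimmed mean of gene-wise ratios, replicate 2 stood above replicate 1 by 1.17-fold (exact 95% limits 1.16 and 1.17), a log2 ratio of 0.22. These limits take the scaling as known. The gene was called in an exact binomial test of how its reads split between the libraries, at a Benjamini-Hochberg adjusted p under 0.05. The same test called 156 of 359 tested genes, or 43.5%, so a call says little about Mir378a in particular. Of the tested genes, 69 (19.2%) were called higher in replicate 2 and 87 (24.2%) in replicate 1. Abundant genes were called more often. Of the 70 genes that averaged at least 1000 CPM, 27 were called higher in replicate 2 and 34 in replicate 1. On library size alone the log2 ratio of Mir378a was 0.40, the median over all tested genes moved by about the same step, from -0.02 to 0.16, and 103 genes were higher in replicate 2 against 67. In bulk tissue, fewer cells of a type and less RNA per cell cannot be told apart.

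The relatives of Mir378a gave log2 ratios of the same sign, but whether some of their few reads came from Mir378a was not tested. Mir378d was 1.26-fold higher (limits 1.11 and 1.44) in replicate 2 and was called in the exact binomial test (adjusted p = 0.00113). Mir378c, with 40 and 46 reads, had a ratio of 1.19 (limits 0.764 and 1.87), and Mir378b, with 8 and 17 reads, a ratio of 2.20 (limits 0.901 and 5.90). Neither was called in the exact test (adjusted p = 0.609 and 0.136). The called members of the family thus numbered 2 of 4, Mir378a itself included, which is close to the 43.5% called over all tested genes, and the count was the same on unscaled library sizes and with size factors from DESeq2. The next genes in the ranking, Mirlet7i, Mir126a and Mirlet7g, were called in the other direction under each of these scalings, with log2 ratios of -0.54, -0.74 and -0.76 on TMM-scaled sizes. Mir23b changed sign with the scaling, from -0.07 to 0.11 on library size alone.

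**Figure D4:**
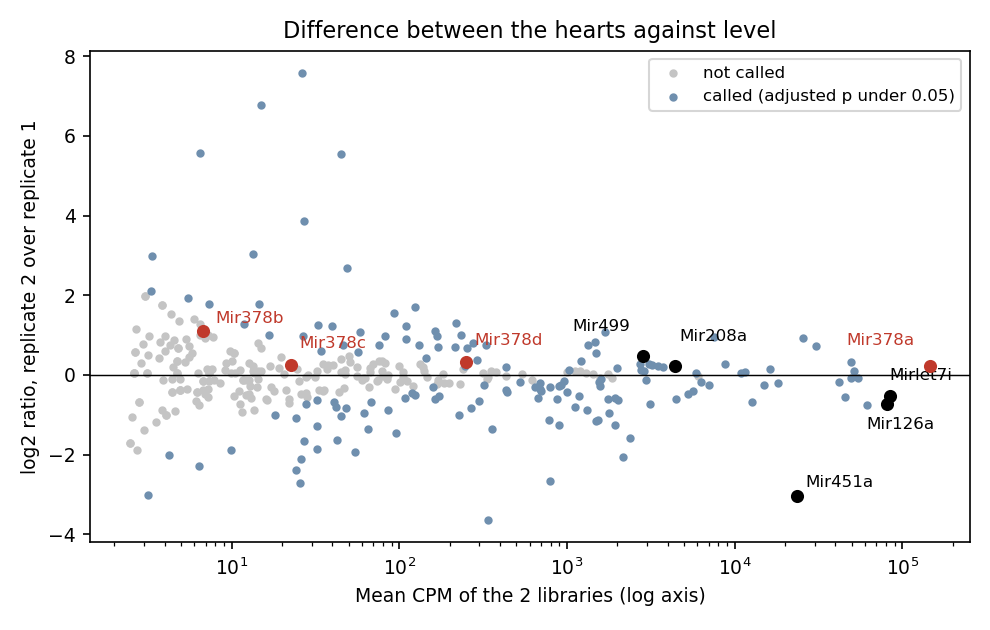
log2 ratio of replicate 2 over replicate 1 (TMM-scaled) against the mean CPM on a log axis for the 359 tested genes; blue points passed the exact binomial test, and genes of the miR-378 family are red. Mir378a lies at the far right at 0.22, above Mirlet7i and Mir126a, and the other family members also lie above 0.

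The ratio of Mir378a to another gene within 1 library needs no scaling between libraries. Mir208a, which lies in an intron of Myh6 and is made in heart muscle cells, had 7904 and 8952 reads. Mir378a had 33.0 times as many in replicate 1 (exact 95% limits 32.3 and 33.7). In replicate 2 it had 32.8 times as many (limits 32.1 and 33.5), and these intervals overlap. To Mir208b, the miRNA of the Myh7 gene with 250 and 277 reads, the ratios were 1043 (limits 921 and 1186) and 1060 (limits 943 and 1197). To Mir499, in an intron of Myh7b with 4593 and 6138 reads, they were 56.8 (limits 55.1 and 58.5) and 47.9 (limits 46.7 and 49.1), which do not overlap.

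Across the 69 other genes that averaged at least 1000 CPM, the count ratio to Mir378a moved by less than 1.1-fold between the hearts for 17 and by 1.5-fold or more for 27. It was larger in replicate 2 for 54 of the 69. The extremes were Mir195a, to which the ratio fell to 0.55 of its value in replicate 1, and Mir451a, to which it rose 9.55-fold. Mir208a was 1 of the 17 genes with a steady ratio.

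**Figure D5:**
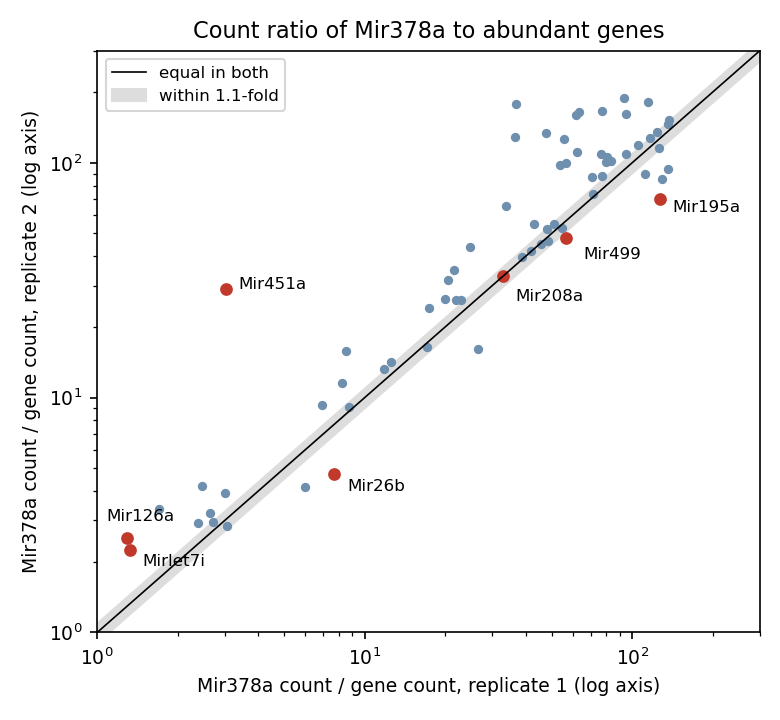
Count of Mir378a over the count of each of the 69 other genes that averaged at least 1000 CPM, in replicate 1 (x) and replicate 2 (y), both on log axes; the line marks equal ratios and the band 1.1-fold. Mir208a lies on the line at 33.0 and 32.8, while Mir451a lies far above it and Mir195a below it.

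The 5 abundant genes whose log2 ratio between the libraries was closest to that of Mir378a were Mir27b, Mir208a, Mir130a, Mir29a and Mir328, a likeness over 2 libraries only. Their log2 ratios of 0.22, 0.23, 0.24, 0.20 and 0.18 differed from that of Mir378a by 0.041 or less, by which they were chosen. Mir27b, of the same cluster as Mir23b, had 6227 and 6985 reads. Mir378a exceeded it by 41.9 times (limits 40.8 and 42.9) in replicate 1 and 42.1 times (limits 41.1 and 43.1) in replicate 2.

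Among 19 miRNA genes known from energy metabolism, a list on which Mir378a does not stand, 18 were in the tables and 15 could be tested. Of these, 8 were called higher in replicate 1 and 2 in replicate 2, beside 24.2% and 19.2% of all tested genes. The median log2 ratio was -0.07 beside -0.02 over all tested genes. On library size alone the balance turned, with 5 members called towards replicate 1 and 6 towards replicate 2 and a median of 0.11 beside 0.16 over all tested genes. The highest members were Mir23b, Mir23a, Mir143 and Mir27b. Mir107, in an intron of the pantothenate kinase gene Pank1, had 2788 and 423 reads, a log2 ratio of -2.67, and Mir34a, a miRNA linked to p53, had 5457 and 2193 reads, a log2 ratio of -1.26; both were chosen after their values were seen. Mir33, in the sterol regulator gene Srebf2, had 12 reads in each library. Of the list of host introns, 17 of 18 were tested, Mir378a among them, with 8 called higher in replicate 2 and 6 in the other heart, beside 19.2% and 24.2% of all tested genes, and a median log2 ratio of 0.06. On library size alone these were 9 and 5, with a median of 0.24. Since abundant genes were called more often, and both lists hold such genes, the counts of called members do not set either list apart.

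Lists of marker miRNAs of cell types were summed in each heart, as a description of these 2 libraries. The heart muscle list (5 of 7 members at 2 CPM or more in both libraries) summed to 6210 CPM in replicate 1 and 8745 in replicate 2. Mir208a and Mir499 made up nearly all of that sum. The median log2 ratio of the 6 tested members was 0.03 on TMM-scaled sizes. On library size alone it was 0.21, beside 0.16 over all tested genes. Mir1a-2 went the other way with 121 and 66 reads and was called higher in replicate 1, and Mir133a-1 had 8 and 2 reads. Mir1a and Mir133a genes have near-identical copies, whose shared reads are in no gene count. The erythroid list summed to 45889 and 7589 CPM with 3 of 3 members detected, and the endothelial list to 99058 and 66887 CPM with 3 of 3. The smooth muscle list summed to 43118 and 44232 CPM (2 of 2), the fibroblast list to 2599 and 3689 (4 of 5, with Mir199a-1 at 0) and the leukocyte list to 4121 and 5447 (4 of 4). In the smooth muscle list Mir143 was called higher in replicate 1 and Mir145a in replicate 2, on TMM-scaled sizes. Mir126a made up nearly all of the endothelial sum, and 2 of the 3 members were called, both higher in replicate 1. In the fibroblast list 1 member was called in each direction on TMM-scaled sizes, with Mir199b at 66 and 30 reads. On library size alone, 2 fibroblast members were called higher in replicate 2 and 1 in replicate 1. In the leukocyte list 3 were called higher in replicate 2 and 1 in replicate 1, Mir142 with 1037 and 387 reads. Of all tested genes, 19.2% were called higher in replicate 2 and 24.2% in replicate 1. Of the 70 genes that averaged at least 1000 CPM, 27 and 34 were called in these directions. A count of called members alone therefore sets none of these lists apart. The liver list summed to 87.7 and 72.5 CPM and the skeletal muscle list to 4.34 and 15.3. Of 6 brain markers 5 were at 0 in both libraries, and Mir9-3 had 2 and 1 reads. The part that these cell types play in the Mir378a difference was not tested. With the 3 erythroid genes left out, the log2 ratio of Mir378a was 0.23.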

How the data were processed

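Per the deposited notes, the authors deposited raw read counts per miRNA gene of GENCODE M21 on mm10, in 3 columns: ignoring strand, sense and antisense; the sense column was used. The aligner, like the counting tool, is not given in the sources used here. The 4 rows that name no gene were left out of library sizes. They held 63.0% of all reads in replicate 1 and 64.6% in replicate 2. In replicates 1 and 2 these included 850101 and 822249 unmapped reads and 2355334 and 1985503 multiply mapped reads. All 2202 gene IDs matched GENCODE M21 by ID. Sequences came from RefSeq on GRCm38.p6, which matched 3 of 4 genes of the miR-378 family and 10 of 11 let-7 genes. CPM is the sense count per 1000000 assigned reads. Genes with 10 or more reads over both libraries were tested by an exact two-sided binomial test (scipy 1.17.1) on TMM-scaled sizes (edgeR 4.0.16), with a prior count of 0.5 in log2 ratios; with 1 group no contrast can be fitted. Alternatives were DESeq2 1.42.0 size factors, library size alone, other filters, library sizes and prior counts, and each library alone. Intervals are Clopper-Pearson at the 95% level. The test was checked on simulated counts that held counting error only, without TMM scaling or variation between animals. That check therefore does not bear on differences between animals.

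Mir378a and the gene lists were chosen with earlier results of these data known. Genes named are Mir378a, its family, the gene facing it, the 4 next by mean CPM, Mir208a, Mir208b and Mir499, its nearest neighbours, the 5 with the closest log2 ratio among those with 1000 CPM or more, and the 4 highest members of the lists of energy metabolism and host introns. Marker lists for 9 cell types or tissues were summed. Outside that rule, and named after their values were seen, are Mir107, Mir34a, Mir33, Mir149, Mir195a, Mir451a, Mir98, Mir1a-2, Mir133a-1, Mir199b, Mir199a-1, Mir142 and Mir9-3. Mir191 and Mir26a-2 also stand outside it, named for their place in the annotation.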

Additional observations from a re-analysis of the deposited data

How the results depend on the processing

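Of 32 values under alternatives, 26 kept their direction, call or size and 6 moved. Part of the 26 was fixed, or nearly so, in advance. With n = 2, the level in either library alone must lie within the SD of the mean, the limit used for a level. The ratio to the next gene in either library alone was likewise judged against the SD of those same 2 ratios. Random removal of reads from the deeper library, down to the size of the other, could hardly move so abundant a gene. Its level was then 145989 CPM and its place 1. The 2 values for the column without strand were given no limit, and a prior count of 2 could not change a call. The number of called genes was compared by its total and not by its balance between directions. Counted without regard to strand, Mir378a fell to a level of 0 CPM, to place 598 by mean CPM and to a ratio of 0 to the leading gene, because its reads stand in the ambiguous row. Its level was 52686 CPM over all reads and 68581 CPM with multiply mapped reads in the library size, and its place was 2 with let-7 genes summed. With either replicate left out, its level was 125675 or 166328 CPM, its place 1 and its ratio to the next gene 1.30 or 2.25; in the column without strand it had 0 reads either way. The log2 ratio of Mir378a between the libraries ran from 0.22 to 0.47 and was called each time; the upper value, on library size without Mir378a, is an alternative chosen after seeing the data. The number of called genes ran from 150 to 173, but the number tested differed, with 156 of 359 called as reported, 151 of 628 without a filter and 150 of 246 at 50 or more counts. With library size without Mir378a, 115 were higher in replicate 2 and 58 in replicate 1. A split needs both libraries, so no replicate could be left out of it. The planned ranking without genes that share hairpin sequence was not run. No paired analysis was possible because the series has 1 group.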
